A study of Mus musculus with 18 samples.

Results

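Macrophages clear dying cells by efferocytosis, and the genes described here encode proteins of the engulfment step, most of them inside the cell. They are the ELMO scaffolds Elmo1 and Elmo2, their DOCK partners Dock1 and Dock2, and the small GTPases Rac1, Rac2 and Rhog. The adaptor Crk and the receptor Lrp1 complete the set. The genes were chosen by symbol from a list of 10, described as intracellular engulfment adaptors and Rac regulators. The gene count table of 23511 genes held 9 of the 10, all 9 passed the filter on low counts, and Gulp1, an adaptor of the LRP1 arm, was not analysed here. RNA was sequenced in bulk from mouse peritoneal macrophages sorted into Tim-4low and Tim-4high cells, Tim-4 being a phosphatidylserine receptor of resident macrophages encoded by Timd4. Each population came from 3 conditions, giving 6 groups of 3 libraries and 18 libraries in all: mice with no tumor and no treatment, mice with the tumor MC38-LG in the peritoneal cavity given an isotype control antibody, and mice with that tumor given anti-Tim-4. MC38 is a mouse colon carcinoma line, the anti-Tim-4 antibody was given on day 7 and tumor-bearing mice were harvested on day 10 after tumor challenge, and the labels place the harvest of mice without a tumor on the same day. The no-tumor groups received neither tumor nor antibody, so the effect of the tumor and that of the isotype antibody cannot be told apart. The labels name neither the strain nor the age of the mice, and they do not say whether the 3 libraries of a group came from separate mice, so p-values measure the spread between these libraries, which may be technical.

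As background, receptors that bind phosphatidylserine on a dying cell signal to the cytoskeleton through 2 routes that meet at Rac. In the first, the adaptor CRK and active RhoG bring the ELMO and DOCK pair to the membrane. DOCK proteins load Rac with GTP, and ELMO proteins hold DOCK in its active form at the membrane. In the second, LRP1, a large endocytic receptor that binds many ligands, works with the adaptor GULP. Active Rac then drives branched actin around the particle, and RAC2 also activates the phagocyte NADPH oxidase. DOCK2 and RAC2 are largely proteins of blood cells, while DOCK1, RAC1 and CRK are made in most tissues.

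The GTPases Rac1, Rac2 and Rhog are close relatives whose reads must be told apart by stretches in which their sequences differ. The ends of their coding regions are printed as an example of such a stretch. The last 60 coding bases before the stop codon are given in GRCm38 (GENCODE M21), 5′ to 3′ on the minus strand on which all of them lie. Capitals mark bases that differ from Rac1 or, in the Rac1 line, from Rac2, at the same distance from the stop codon.
Rac1, chr5:143506978-143507037: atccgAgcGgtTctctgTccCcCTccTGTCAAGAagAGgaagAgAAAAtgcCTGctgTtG
Rac2, chr15:78561911-78561970: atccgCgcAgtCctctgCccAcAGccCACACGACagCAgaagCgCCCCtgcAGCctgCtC
Rhog, chr7:102239672-102239731: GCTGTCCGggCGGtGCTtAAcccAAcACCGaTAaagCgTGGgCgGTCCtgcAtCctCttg
In this stretch 27 of 60 bases differ between Rac1 and Rac2 and 36 between Rhog and Rac1. Bases were set against each other by position from the stop codon, without gaps. The coding region of Rhog has 573 bases against 576 in Rac1 and Rac2. Part of the 36 can therefore come from that shift rather than from base changes. Over the whole coding region Rac1 and Rac2 shared 444 of 576 bases (77.1%) with a longest identical run of 29 bases. Over their first 573 bases, again without gaps, Rac1 and Rhog shared 65.1% and Rac2 and Rhog 68.6%. The genes lie apart in the genome (GRCm38): Elmo1 at chr13:20090596-20608353, Elmo2 at chr2:165288031-165326479, Dock1 at chr7:134670654-135173639, Dock2 at chr11:34226815-34783892, Rac1 at chr5:143503634-143528036, Rac2 at chr15:78559167-78572783, Lrp1 at chr10:127538161-127621148, Rhog at chr7:102239123-102256054 and Crk at chr11:75679259-75706908. How the authors' counting split reads between copies is not given in the sources used here.

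Transcript models add 2 further sequences that bear on the results. The deposited transcript table splits Rac1 into a model with and one without a 57-base coding exon, the exon that makes the splice form known as Rac1b. That exon lies at chr5:143509597-143509653 on the minus strand, and is printed in capitals between the 12 coding bases on either side.
Rac1 extra exon: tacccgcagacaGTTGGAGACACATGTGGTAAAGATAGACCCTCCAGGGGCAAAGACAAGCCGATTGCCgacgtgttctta
Elmo2 is split mainly between Elmo2-203 and Elmo2-205, which begin at different first exons, 62 and 167 bases long, and share their 2160 coding bases. Each begins at a RefSeq start, at bases 165326479 and 165320826 of chromosome 2, and the 250 bases before each start are printed from the RefSeq promoter table (GRCm38.p6, minus strand). Capitals mark matches, on either strand, to the GC box GGGCGG, the core ACGTG bound by hypoxia-inducible factors, the AP-1 site TGANTCA, GAGGAAGT of the PU.1 type and the TATA box TATAAA.
Before Elmo2-203, chr2:165326480-165326729: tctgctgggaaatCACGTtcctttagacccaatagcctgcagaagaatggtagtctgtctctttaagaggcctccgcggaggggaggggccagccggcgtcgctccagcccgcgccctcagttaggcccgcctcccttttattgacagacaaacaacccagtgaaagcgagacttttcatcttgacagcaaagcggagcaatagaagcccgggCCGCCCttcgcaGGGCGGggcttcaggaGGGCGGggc
Before Elmo2-205, chr2:165320827-165321076: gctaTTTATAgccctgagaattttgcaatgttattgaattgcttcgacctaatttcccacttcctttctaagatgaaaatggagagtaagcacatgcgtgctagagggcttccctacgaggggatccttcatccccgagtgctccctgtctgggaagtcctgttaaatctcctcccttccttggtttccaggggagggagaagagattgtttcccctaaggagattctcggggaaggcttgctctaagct
The start of Elmo2-203 had 3 matches to the GC box and 1 to ACGTG, and that of Elmo2-205 had 1 match to TATAAA. Among 32851 mouse promoters of 300 bases, 35.7% hold the GC box, 19.6% ACGTG, 13.6% TATAAA, 7.81% TGANTCA and 3.20% GAGGAAGT. A match describes the letters and is not a site shown to be bound.

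Library totals lay between 24530070 and 34110392 estimated counts. Levels are in CPM, with library sizes adjusted by TMM, given for libraries 1, 2 and 3 of a group in that order or as mean ± SD of 3 libraries. In bulk RNA a lower level can come from fewer cells of a type or from less RNA per cell, and these cannot be told apart. The sort showed in Timd4 itself: Tim-4high libraries had 729.5 ± 138 CPM without a tumor, 298 ± 19.8 under isotype and 187 ± 28.2 under the antibody, and Tim-4low libraries had 42.4 ± 57.3, 33.6 ± 36.2 and 21.3 ± 8.69 in that order. Among Tim-4low libraries 2 stood apart in Timd4, no-tumor library 1 at 109 and isotype library 3 at 75.4 CPM of Timd4. Macrophage markers were abundant in every library (Csf1r from 1172 to 1814 CPM, Itgam from 2674 to 8028). Both no-tumor libraries numbered 1 held more B cell RNA than the others of their group, with 8 markers summing to 912 CPM in Tim-4low and 283 in Tim-4high against 82.4 to 122 in the other no-tumor libraries, and more mast cell and eosinophil RNA (148 and 87.0 CPM for 9 markers, against 4.79 to 10.8). Both isotype libraries numbered 3 held more T and NK cell RNA (142 and 126 CPM for 12 markers, against 16.3 to 30.4 in the other isotype libraries), neutrophil RNA (379.8 and 369.8 for 9 markers, against 87.1 to 115) and fibroblast and mesothelial RNA (76.2 and 45.6 for 10 markers, against 9.59 to 38.1). Calls that were lost without these pairs are named beside each result. The defining neutrophil gene Ly6g was at 0 in 5 libraries and at most at 1.04 CPM, and Col1a1 was at 0 in 3 and at most at 15.3. Sums weigh abundant genes most. Among macrophage markers Lyz2 reached 35851 CPM, among monocyte and dendritic cell markers Ccr2 reached 1766, and among neutrophil markers Csf3r reached 260.

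All 9 genes were expressed in every library. Compared per kilobase, with the counts of each transcript divided by its own length, the mean over 18 libraries was 286 ± 35.0 CPM per kb for Lrp1, 249.9 ± 30.0 for Rac1, 159 ± 34.8 for Rhog, 119 ± 23.0 for Rac2 and 106 ± 10.8 for Dock2. The scaffolds and the remaining genes were lower on the same scale, at 72.9 ± 13.4 for Elmo2, 43.8 ± 3.95 for Crk, 13.6 ± 2.13 for Elmo1 and 10.2 ± 1.42 for Dock1. Lrp1 depends most on the transcript models, since the effective length they gave ran from 6.62 to 10.9 kb between libraries. Elmo2 was thus the more abundant ELMO gene and Dock2 the more abundant DOCK gene of the set. Across the 6 groups the highest group mean was 1.92 times the lowest for Rhog and between 1.25 times for Crk and 1.78 times for Elmo2 for the others, against a median of 1.79 times over all genes tested.

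**Figure D1:**
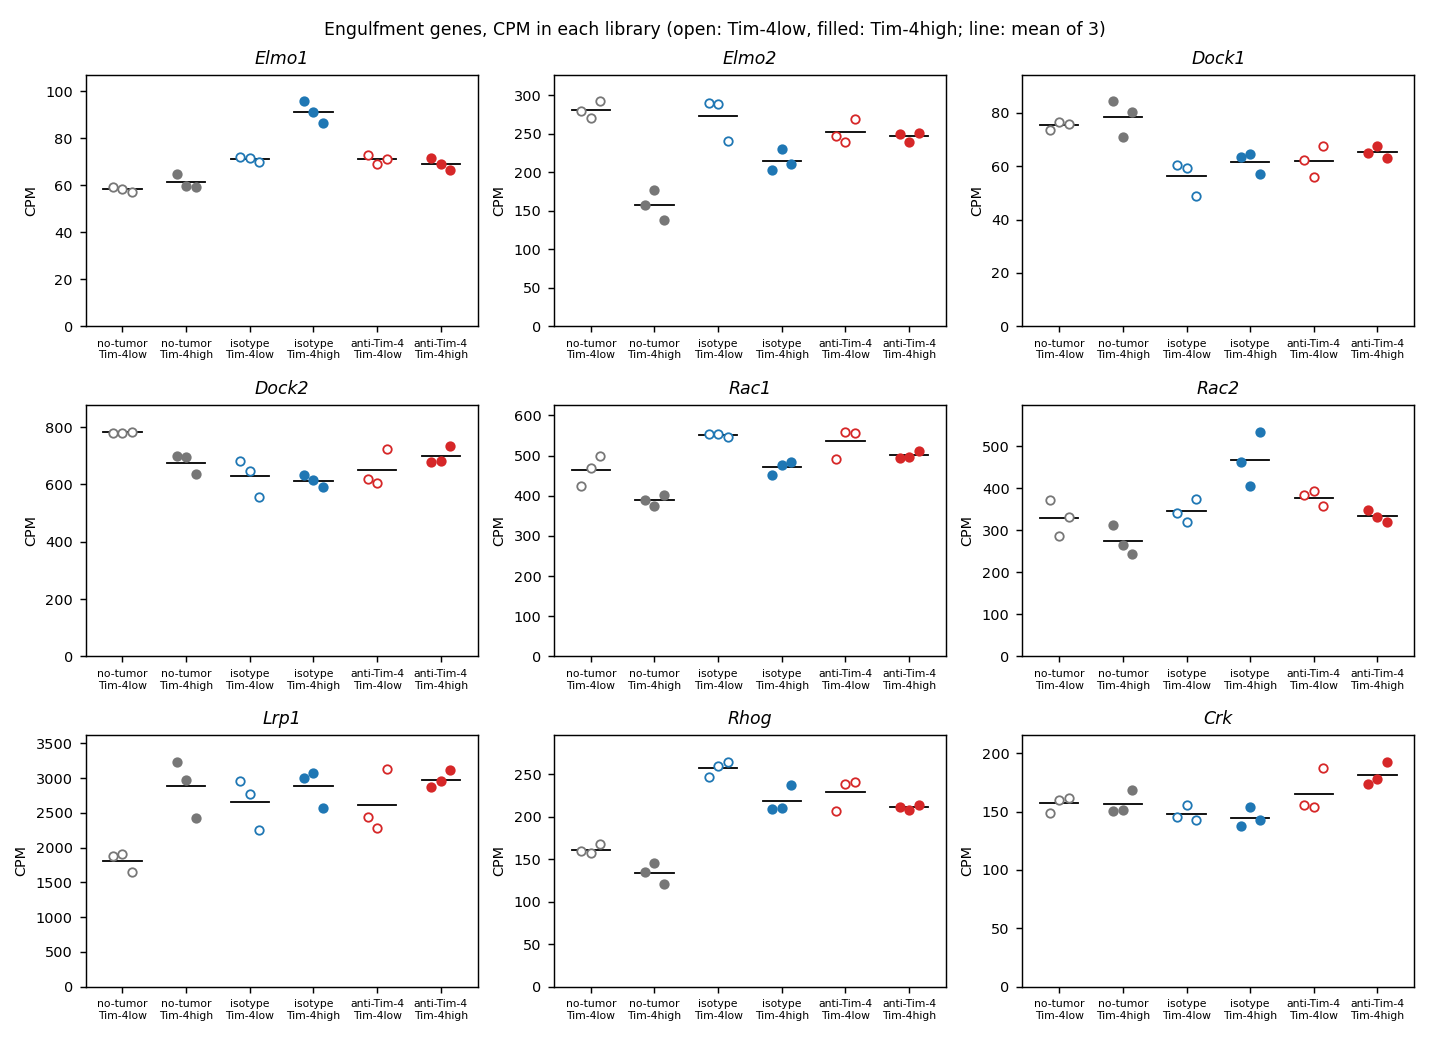
CPM (y axis, from 0) of each of the 9 engulfment genes in the 18 libraries, by group on the x axis; points are libraries, open for Tim-4low and filled for Tim-4high, and lines are means of 3. Elmo1 and Rac2 stand highest in isotype Tim-4high libraries (means of 91.1 and 468 CPM), and Lrp1 stands lowest in no-tumor Tim-4low libraries (1811 CPM).

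Without a tumor, Tim-4low and Tim-4high macrophages differed most in the scaffold Elmo2 and the receptor Lrp1. Of the 9 genes, 3 were higher and 1 was lower in Tim-4low cells at a Benjamini-Hochberg adjusted p under 0.05 in edgeR's quasi-likelihood test, the threshold for every call below. Over all 16609 genes tested, 24.6% passed in this comparison, 12.8% higher and 11.8% lower, and 34.9% had groups of 3 libraries that did not overlap in CPM. The median log2 fold change of the 9 was 0.21, against 0.02 over all genes.

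Elmo2 was at 279.5, 270.04 and 292 CPM in Tim-4low libraries and at 158, 177 and 139 in Tim-4high libraries. The groups did not overlap, and the log2 fold change was 0.83 ± 0.09 (SE; 1.78-fold; adjusted p = 1.4e-05). It passed the test in all 13 alternative analyses, with an adjusted p of at most 0.00467. Both Elmo2 transcripts contributed: Elmo2-203 was at 207 ± 6.23 against 129 ± 15.3 CPM, and Elmo2-205, from the second start printed above, at 50.4, 42.7 and 46.0 against 12.5, 17.1 and 11.4 CPM. Elmo2-205 therefore held 16.5% ± 1.30 of the Elmo2 counts in Tim-4low and 8.62% ± 0.92 in Tim-4high libraries, and its mean CPM was 3.39 times as high in Tim-4low cells, against 1.61 times for Elmo2-203. The transcripts differ only in their first exons and in the length of the last, 1407 bases in Elmo2-203 and 2531 in Elmo2-205, so only reads in those exons tell them apart, and the shares, which are estimates, were not tested.

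**Figure D2:**
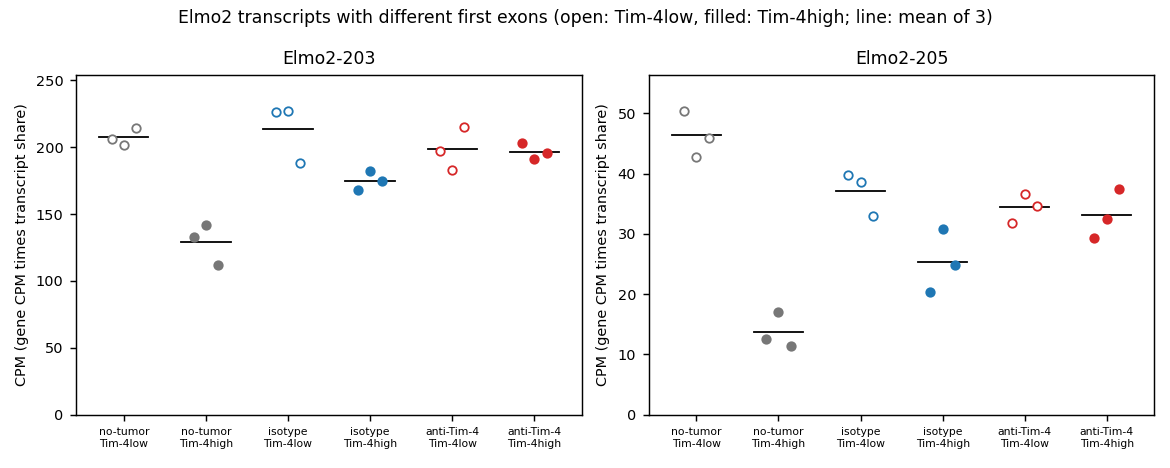
CPM (y axis, from 0) of the 2 main Elmo2 transcripts, computed as gene CPM times transcript share, in each library by group; open points are Tim-4low, filled points Tim-4high, and lines are means of 3. Without a tumor Elmo2-205 ranges from 42.7 to 50.4 CPM in Tim-4low and from 11.4 to 17.1 in Tim-4high libraries, while with anti-Tim-4 the populations overlap.

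Lrp1 went the other way, with 1882, 1903 and 1648 CPM in Tim-4low libraries and 3234, 2973 and 2434 in Tim-4high libraries. Every Tim-4low library was below every Tim-4high library, and Lrp1 fell by 0.67 ± 0.14 on the log2 scale (1.59-fold lower in Tim-4low; adjusted p = 0.00214). This call held in all 13 alternatives (adjusted p of at most 0.0241), none of which changed the transcript lengths. Per kilobase the gap was smaller, 228 ± 4.43 against 289 ± 17.7 CPM per kb, still without overlap. With isotype the mean on that scale was higher in Tim-4low libraries (311 ± 26.7 against 295 ± 9.60), with overlapping ranges (287 to 339 and 285 to 304 CPM per kb).

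The GTPases Rac1 and Rhog were modestly higher in Tim-4low cells. Rac1 was at 424, 468 and 499.8 against 389.7, 374 and 401 CPM, a log2 fold change of 0.26 ± 0.07 (adjusted p = 0.0145). Rhog was at 159.9, 157 and 167 against 135, 145 and 120.3 CPM, a log2 fold change of 0.27 ± 0.08 (adjusted p = 0.0199). Neither pair of groups overlapped, yet Rac1 passed in 11 and Rhog in 8 of 13 alternatives. A fit of the compared groups alone called neither, and single libraries mattered as well. Rac1 lost its call without no-tumor Tim-4low library 3 (adjusted p = 0.0915; 0.00125 to 0.0992 over its alternatives). Rhog lost it without Tim-4low library 3, Tim-4high library 1 or Tim-4high library 3 (0.0899, 0.0564 and 0.0978; 0.00713 to 0.0978 over its alternatives), and without both libraries numbered 1 (0.0631).

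With the library number as a block, which uses the pairing of same-numbered libraries within a condition, 2 more genes passed. Dock2 was at 780.1, 781 and 784 CPM in Tim-4low and 699.8, 694 and 635 in Tim-4high libraries, with a log2 fold change of 0.21 and an adjusted p of 0.0878 without and 0.0207 with the block. For Rac2 these values were 0.27, 0.107 and 0.00785, with overlapping groups (372, 286 and 332 against 313, 264 and 244 CPM). Monocyte and dendritic cell markers moved with these differences: 5 of 9 were higher in Tim-4low cells, and their sum was 1339 to 2000.4 CPM there against 55.9 to 123 in Tim-4high libraries. Of 8 macrophage markers, 6 were lower in Tim-4low cells. T and NK cell markers summed to 48.9 to 118 CPM in Tim-4low and 7.21 to 31.3 in Tim-4high libraries (1 of 12 called higher), and neutrophil markers to 113 to 125 and 215 to 264 (1 higher and 1 lower of 8). Their part in the differences was not tested.

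In tumor-bearing mice given isotype, 3 of the 9 genes were higher and 2 lower in Tim-4low than in Tim-4high cells, against 24.1% of all genes (11.3% higher, 12.9% lower). Groups of 3 did not overlap for 43.3% of all genes. The direction of Elmo2, Rac1 and Rhog was as without a tumor, and the 2 genes lower in Tim-4low cells were now Elmo1 and Rac2. The median log2 fold change was 0.03 for the 9 and 0.01 for all genes.

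Elmo1 was at 72.1, 71.4 and 69.7 CPM in isotype Tim-4low libraries and at 95.6, 91.3 and 86.5 in isotype Tim-4high libraries, with no overlap. It was lower in Tim-4low by 1.28-fold (log2 fold change -0.36 ± 0.05, adjusted p = 0.000316), and passed in all 13 alternatives. Elmo1 exons overlap a gene on the opposite strand, Gm32036, as do those of Dock2 (4930403D09Rik) and Rac1 (Daglb), and whether counting used strand is not given in the sources used here, so reads of the 2 genes of each pair cannot be told apart.

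Rac2 was at 341, 321 and 375 CPM in isotype Tim-4low and at 463, 406 and 535 in isotype Tim-4high libraries. The lowest Tim-4high library was above the highest Tim-4low library, and Rac2 was 1.35-fold lower in Tim-4low (log2 fold change -0.44 ± 0.12, adjusted p = 0.0125). The call was lost without isotype Tim-4low library 2 (adjusted p = 0.0619), without Tim-4high library 3, which held the highest Rac2 level of all 18 (0.0645), and without both isotype libraries numbered 3 (0.0528), in a range of 0.000385 to 0.0645 over its alternatives.

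Elmo2 again favoured Tim-4low cells, with 289.6, 288 and 241 against 203, 230.1 and 211 CPM. Its log2 fold change of 0.35 ± 0.09 (adjusted p = 0.0125) was no longer called without isotype Tim-4low library 1 or 2 or Tim-4high library 1 (0.0581, 0.0626 and 0.0688; 0.00234 to 0.0688 over its alternatives). Rac1 was at 552 ± 4.73 against 471 ± 17.2 CPM (0.23 ± 0.07, adjusted p = 0.0279), and Rhog at 257 ± 9.07 against 219 ± 16.1 CPM (0.23 ± 0.08, adjusted p = 0.044). Those 2 calls were fragile: Rac1 passed in 0 and Rhog in 1 of 6 analyses that each left out 1 library, that of Rhog being the one without isotype Tim-4high library 3, with adjusted p from 0.00515 to 0.132 and from 0.025 to 0.179 over all their alternatives. Monocyte and dendritic cell markers were again higher in Tim-4low cells (3 of 9 called; sums of 969 to 1064 against 72.8 to 219 CPM). Macrophage markers summed to 17087 to 18314 against 21262 to 22518 CPM (1 higher and 4 lower of 8). The part of these markers was not tested.

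After anti-Tim-4, 0 of the 9 genes passed in either direction, against 1.39% of all genes (0.542% higher, 0.849% lower), and 0 had an unadjusted p under 0.05. DESeq2 and the blocked fit also called 0. Elmo1 was at 70.9 ± 1.99 CPM in Tim-4low and 69.0 ± 2.66 in Tim-4high libraries, Elmo2 at 252 ± 15.5 and 247 ± 6.23, and Rac2 at 377 ± 18.5 and 334 ± 14.5. The Elmo1 and Elmo2 groups overlapped, and those of Rac2 did not, as was so for 22% of all genes. Timd4 still separated the populations in mean level, although its level in Tim-4high cells was lower than without a tumor.

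**Figure D3:**
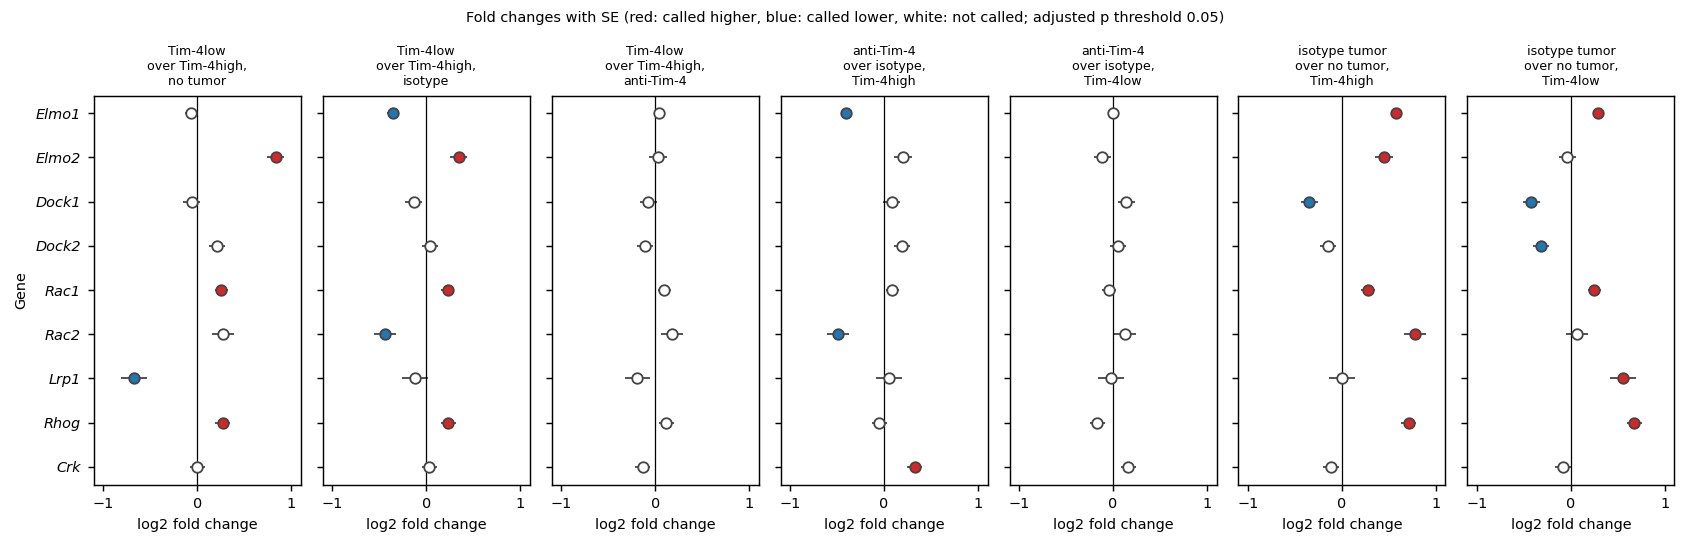
Log2 fold changes (x axis) of the 9 genes (y axis) in the 7 comparisons of groups, with bars of 1 SE; red points were called higher, blue points called lower and white points not called at an adjusted p under 0.05. Elmo2 has the largest difference between populations without a tumor (0.83), Rac2 the largest with the tumor in Tim-4high cells (0.77), and no gene is called in the third and the fifth panels.

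With the tumor and isotype, 5 of the 9 genes were higher and 1 was lower than without a tumor in Tim-4high macrophages, where 51.5% of all genes passed (27.3% higher, 24.1% lower) and 57.5% had groups that did not overlap. The count is near that background. In size, the median log2 fold change of the 9 was 0.28, against -0.01 over all genes, and the median absolute change was 0.35 against 0.46. Rac2, Rhog and Elmo1 changed by more in size than the median gene, and the other 6 by less.

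Rac2 changed most in Tim-4high cells, from 313, 264 and 244 CPM without a tumor to 463, 406 and 535 with it (log2 fold change 0.77 ± 0.12, 1.71-fold, adjusted p = 5.66e-05). Rhog, the GTPase upstream of ELMO, went from 135, 145 and 120.3 to 209, 210.1 and 237 CPM (0.71 ± 0.08, 1.64-fold, adjusted p = 3.45e-06). Elmo1 went from 64.5, 59.7 and 59.2 to 95.6, 91.3 and 86.5 CPM (0.58 ± 0.05, 1.49-fold, adjusted p = 6.74e-07). In all of these genes every library with a tumor was above every library without one.

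Elmo2 rose from 158 ± 19.2 to 215 ± 13.8 CPM (0.45 ± 0.09, adjusted p = 0.000838) and Rac1 from 388 ± 13.4 to 471 ± 17.2 (0.28 ± 0.07, adjusted p = 0.00408), both without overlap. Dock1 was the member that fell, from 84.3, 71.1 and 80.3 to 63.5, 64.5 and 57.1 CPM (-0.35 ± 0.09, adjusted p = 0.00441). These 6 calls held in all 14 alternatives of the comparison. Lrp1 stayed at about the same level, 2880.1 ± 408 CPM without and 2881 ± 272 with the tumor, and Crk was at 157 ± 10.0 and 145 ± 8.27; neither passed.

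In Tim-4low macrophages 4 of the 9 were higher and 2 lower with the tumor and isotype, against 49.8% of all genes (25.2% higher, 24.6% lower; 58% without overlap), again a count near the background. The median absolute log2 fold change was 0.29 for the 9 and 0.43 for all genes, with Rhog and Lrp1 above the latter and the other 7 below it. Rhog rose from 159.9, 157 and 167 to 247, 259.5 and 264 CPM (0.67 ± 0.08, 1.59-fold, adjusted p = 6.72e-06). Lrp1, lowest of all groups in Tim-4low cells without a tumor, rose from 1882, 1903 and 1648 to 2953, 2772 and 2248 CPM (0.55 ± 0.14, 1.47-fold, adjusted p = 0.00355). The ranges of both genes were separate.

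Elmo1 rose from 58.2 ± 0.88 to 71.1 ± 1.22 CPM (0.29 ± 0.05, adjusted p = 0.000421). Rac1 rose from 464 ± 38.1 to 552 ± 4.73 CPM (0.25 ± 0.07, adjusted p = 0.00848), a call that was lost without both no-tumor libraries numbered 1 (0.0525; 0.00133 to 0.0525 over its alternatives). Both DOCK genes fell: Dock1 from 73.6, 76.7 and 76.0 to 60.6, 59.3 and 48.9 CPM (-0.42 ± 0.09, adjusted p = 0.00114), and Dock2 from 780.1, 781 and 784 to 681, 648 and 555 CPM (-0.32 ± 0.08, adjusted p = 0.00597). Apart from Rac1, the calls held in all 14 alternatives. Elmo2 (281 ± 11.04 and 273 ± 27.7 CPM), Rac2 (330.3 ± 42.8 and 345 ± 27.4) and Crk (157 ± 6.95 and 148 ± 6.65) did not pass.

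Markers of the sorted and of other cells moved with the tumor in both populations. Macrophage markers summed to 36521 to 44879 CPM without and 21262 to 22518 with the tumor in Tim-4high cells, and to 26217 to 28946.5 and 17087 to 18314 in Tim-4low cells, although more of the 8 rose (4 and 3) than fell (2 in each). Monocyte and dendritic cell markers summed to 1339 to 2000.4 CPM without and 969 to 1064 with the tumor in Tim-4low cells, and epithelial markers to 5.65 to 12.3 and 16.8 to 25.1 there. Of 6 tested mast cell and eosinophil markers, 4 fell in each population and 1 rose in Tim-4high cells. All 8 B cell markers fell in each population, from 82.4 to 912 CPM in sum without a tumor to 6.16 to 40.3 with tumor and isotype. Fibroblast and mesothelial markers rose, 9 of 9 tested in each population, from at most 0.814 to between 9.59 and 76.2 CPM in sum. Of 12 T and NK cell markers 9 rose in Tim-4high cells, and 10 rose and 1 fell in Tim-4low cells. Of 8 tested neutrophil markers 7 rose and 1 fell in Tim-4high cells, and 5 rose in Tim-4low cells. Summed levels did not follow these counts throughout: neutrophil markers summed to 215 to 264 CPM in Tim-4high cells without a tumor and to 95.9 to 369.8 with it, and to 113 to 125 and 87.1 to 379.8 in Tim-4low cells. Over the 18 libraries the neutrophil marker Csf3r alone ran from 28.4 to 260 CPM, and the macrophage marker Lyz2 from 6948 to 35851. T and NK cell markers summed to 7.21 to 31.3 and 16.3 to 126 CPM in Tim-4high cells, and to 48.9 to 118 and 24.3 to 142 in Tim-4low cells. Leaving out both no-tumor libraries numbered 1, or both isotype libraries numbered 3, kept every call of the 9 genes except Rac1 as given above. The part of these cells in the changes was otherwise not tested.

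In Tim-4high macrophages of tumor-bearing mice, anti-Tim-4 was accompanied by less Elmo1 and Rac2 and more Crk than isotype, 1 gene higher and 2 lower of 9, against 7.97% of all genes (4.3% higher, 3.67% lower; 39.2% without overlap). Median log2 fold changes were 0.08 for the 9 and -0.0045 for all genes. Elmo1 was at 71.7, 68.9 and 66.4 CPM with anti-Tim-4 and at 95.6, 91.3 and 86.5 with isotype, without overlap (-0.40 ± 0.05, 1.32-fold lower, adjusted p = 0.00457). It passed in all 13 alternatives, with an adjusted p of at most 0.0466. The Elmo1 level with anti-Tim-4 was above the 59.2 to 64.5 CPM of Tim-4high cells without a tumor.

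Rac2 was at 349, 332 and 320.3 CPM with anti-Tim-4 and at 463, 406 and 535 with isotype (-0.49 ± 0.12, 1.40-fold lower, adjusted p = 0.0242). Crk was at 173, 178 and 193 against 138, 154 and 143 CPM (0.33 ± 0.08, 1.25-fold higher, adjusted p = 0.0284). Neither gene's groups overlapped. Each of the 2 calls was lost in 4 of 6 analyses that left out 1 library, those without isotype Tim-4high library 1 or 3 or anti-Tim-4 Tim-4high library 2 or 3, with adjusted p of 0.00165 to 0.132 for Rac2 and 0.00461 to 0.147 for Crk over all their alternatives. Without both isotype libraries numbered 3 they were 0.107 and 0.101.

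Elmo2 (247 ± 6.23 against 215 ± 13.8 CPM) and Dock2 (698 ± 31.1 against 612 ± 21.05 CPM) had unadjusted p under 0.05 but adjusted p of 0.181 and 0.171. Several markers were lower with anti-Tim-4 in these libraries, 5 of 9 tested fibroblast and mesothelial markers, 3 of 8 neutrophil markers, 1 of 5 epithelial markers (Krt7) and 2 of 8 macrophage markers (Cd68 and Icam2), and 1 of 9 monocyte and dendritic cell markers was higher (Batf3). Neutrophil markers summed to 53.9 to 66.1 against 95.9 to 369.8 CPM, fibroblast and mesothelial markers to 4.31 to 6.49 against 9.59 to 45.6, and epithelial markers to 18.6 to 20.1 against 8.29 to 15.2. Their part in the results was not tested. In Tim-4low macrophages anti-Tim-4 and isotype differed in 0 of the 9 genes, against 0.325% of all genes (0.223% higher, 0.102% lower), and 0 had an unadjusted p under 0.05; DESeq2 also called 0. Elmo1 was there at 70.9 ± 1.99 and 71.1 ± 1.22 CPM with overlapping ranges, and the ranges of Rac2 overlapped too (377 ± 18.5 and 345 ± 27.4). The groups of Rhog did not overlap (229 ± 19.2 CPM with anti-Tim-4 and 257 ± 9.07 with isotype, adjusted p = 0.411 in the quasi-likelihood test), as was so for 18% of all genes.

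The difference between populations in the response to the tumor was tested as an interaction: the log2 ratio of Tim-4low to Tim-4high cells under tumor and isotype, minus that ratio in the absence of a tumor. Rac2 passed, 1 of 9 genes against 3.53% of all genes (1.32% higher, 2.21% lower), with -0.71 ± 0.16 (adjusted p = 0.0262): its ratio changed from 330.3 over 274 CPM without a tumor to 345 over 468 with it. Elmo1 (-0.29 ± 0.08, adjusted p = 0.0525) and Elmo2 (-0.49 ± 0.13, adjusted p = 0.0521) missed the threshold narrowly. The count of 1 depended on the setting. With the library number as a block 4 passed, Rac2 (-0.70, adjusted p = 0.000829), Elmo1 (-0.29, 0.0234), Elmo2 (-0.50, 0.0204) and Lrp1 (0.54, 0.00981; 0.145 without the block). Without the block, the Rac2 call was lost in 8 of 12 analyses that left out 1 library and without both isotype libraries numbered 3 (0.0737), in a range of 0.000829 to 0.083 over its alternatives.

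The response to anti-Tim-4 was compared between populations in the same way, with the ratio under anti-Tim-4 minus that under isotype. Elmo1 passed, 1 of 9 genes against 2.93% of all genes (1.67% higher, 1.26% lower), with 0.40 ± 0.08 (adjusted p = 0.024), since it was lower with the antibody in Tim-4high cells and level in Tim-4low cells. Rac2 was close (0.61 ± 0.16, adjusted p = 0.0546) and passed with the library number as a block (0.61, adjusted p = 0.00123), as Elmo1 did (0.40, 0.00288). Without the block the Elmo1 call was lost in 6 of 12 analyses that left out 1 library, those without isotype Tim-4low library 1 or 2, isotype Tim-4high library 1, anti-Tim-4 Tim-4low library 1 or anti-Tim-4 Tim-4high library 2 or 3, and without both isotype libraries numbered 3 (0.0573; 5.11e-05 to 0.0842 over its alternatives). Both interactions and several comparisons above use the same isotype libraries, so their values are not independent.

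The 3 paralog pairs were compared as a ratio within each library, where no library size enters, taken as log2 of the ratio of estimated counts with 0.5 added. The mean Elmo1 to Elmo2 ratio was -2.27 ± 0.07 in Tim-4low and -1.36 ± 0.18 in Tim-4high libraries without a tumor, -1.94 ± 0.13 and -1.24 ± 0.13 with isotype, and -1.83 ± 0.08 and -1.84 ± 0.07 with anti-Tim-4. Both gaps of the first 2 conditions were free of overlap, and under anti-Tim-4 the populations overlapped. Averaged over conditions the ratio was lower in Tim-4low cells by 0.53 (-0.53), and lower in 7 of 9 same-numbered pairs. An exact two-sided permutation test of libraries within conditions (8000 rearrangements) gave p = 0.0035, 0.0105 adjusted over the 3 ratios, and flipping the sign of same-numbered pairs (512 flips, exact) gave 0.0703 adjusted.

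Dock2 exceeded Dock1 in estimated counts by a log2 ratio between 2.98 and 3.54 in every library. The ratio was higher in Tim-4low cells by 0.14 on average and in 7 of 9 pairs (exact permutation test, adjusted p = 0.03, and 0.0703 by sign flips). It was higher without a tumor (3.37 ± 0.03 against 3.11 ± 0.16) and with isotype (3.48 ± 0.03 against 3.31 ± 0.06), and not with anti-Tim-4 (3.39 ± 0.07 against 3.42 ± 0.11). Leaving out any 1 of 6 libraries raised its adjusted p to between 0.0536 and 0.0758: no-tumor Tim-4low library 2 or 3, anti-Tim-4 Tim-4low library 2 or 3, and anti-Tim-4 Tim-4high library 1 or 2. The Rac2 to Rac1 ratio did not pass (-0.19, exact permutation test, adjusted p = 0.136), with 4 of 9 pairs lower and 5 higher in Tim-4low cells; without no-tumor Tim-4low library 1 it was -0.24 (adjusted p = 0.048). It was -0.02 ± 0.19 in isotype Tim-4high libraries and between -0.68 and -0.50 on average in the 5 other groups, and its range there (-0.23 to 0.14) overlapped that of no-tumor Tim-4low libraries (-0.71 to -0.19).

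**Figure D4:**
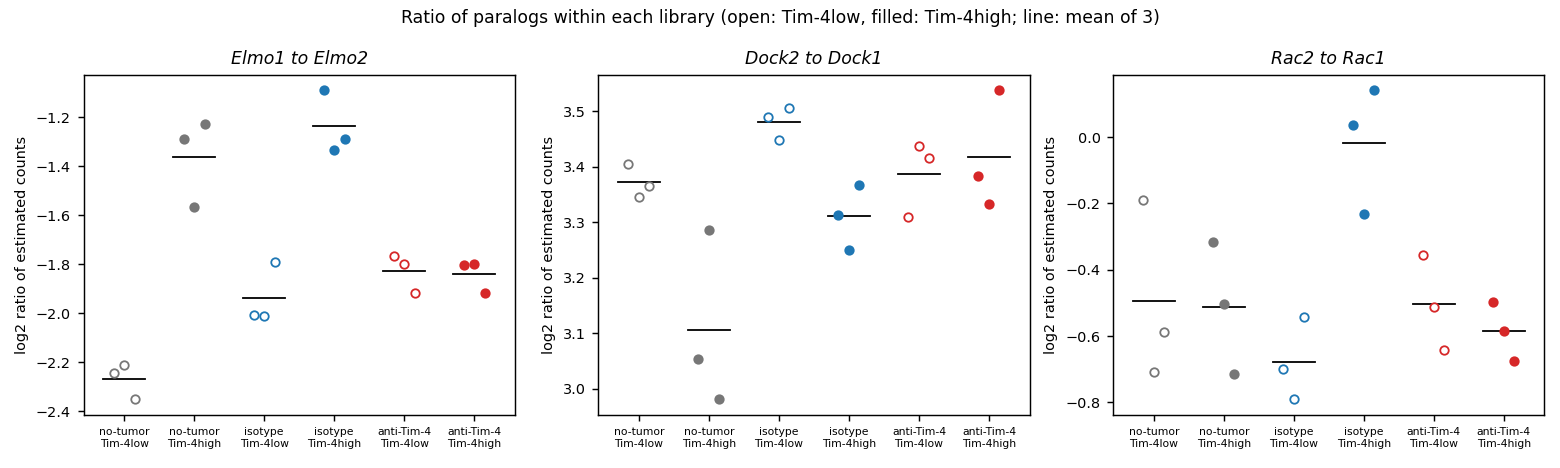
Log2 ratio of estimated counts of 2 paralogs (y axis) in each library, by group on the x axis; open points are Tim-4low, filled points Tim-4high, and lines are means of 3. The Elmo1 to Elmo2 ratio is higher in Tim-4high libraries without a tumor and with isotype and is the same to within the spread with anti-Tim-4 (-1.83 and -1.84), and the Rac2 to Rac1 ratio is near 0 in isotype Tim-4high libraries (-0.02).

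At transcript level, 6 of the genes had a single model with at least 10% of their counts. Rac1-202, the model with the exon printed above, held 79.4% ± 2.03 of the Rac1 counts over 18 libraries and Rac1-201, without it, 12.1% ± 2.60. The models also differ in their last exon, 1624 bases in Rac1-202 and 3472 in Rac1-201, so the share cannot be read as inclusion of the 57-base exon. Crk-201 (912 coding bases) held 84.6% ± 1.35 and Crk-203 (612 coding bases, as in the short form Crk-I) 14.6% ± 1.21, and the group means of Crk-203 lay between 13.3% and 15.2%. The higher Crk level under anti-Tim-4 in Tim-4high cells thus came with a Crk-203 share of 13.3% ± 1.90 against 14.9% ± 0.70 with isotype, a difference within the spread.

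Around these genes, the rest of the pathway was read from lists of its genes, with the members named being up to 3 of smallest p in each. The lists themselves were not tested, and their counts between populations without a tumor stand beside 12.8% of all genes higher and 11.8% lower. Of 22 WAVE and Arp2/3 genes of actin branching, 10 were higher in Tim-4low cells, 2 lower and 10 not called. The higher ones included Actr3 (0.48 ± 0.07, adjusted p = 0.000105), a core Arp2/3 subunit, and Wipf1 (0.63 ± 0.09, adjusted p = 6.93e-05), which binds WASP, while the WAVE partner Abi3 was lower (-1.001 ± 0.11, adjusted p = 1.47e-05). Of 14 other exchange factors 5 were higher and 1 lower, led by Vav2 (0.89 ± 0.09, adjusted p = 8.33e-06). Of 16 adaptors 7 were lower, 1 was higher and 8 were not called, the lower ones led by Bcar1 (-2.80 ± 0.34, adjusted p = 2.84e-05), the docking protein that CRK binds, and Nck2 (-1.34 ± 0.18, adjusted p = 5.44e-05). With the tumor Bcar1 was at a low level, 1.97 ± 0.27 CPM in isotype Tim-4high and 0.64 ± 0.25 in isotype Tim-4low libraries. Rac inhibitors were split, 4 higher and 4 lower of 15. Of the 9 other DOCK and ELMO genes tested 1 was higher and 3 lower, Dock6 (-1.098 ± 0.15, adjusted p = 7.61e-05), Dock5 (-0.86 ± 0.14, adjusted p = 0.000381) and Dock4 (-1.60 ± 0.29, adjusted p = 0.000868).

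Receptors and bridging proteins upstream were lower in Tim-4low cells in 13 of 23 cases and higher in 3. Axl, a TAM receptor, was higher (1.84 ± 0.14, adjusted p = 6.79e-07), and the bridging protein Pros1 (-1.04 ± 0.14, adjusted p = 6.48e-05) and the complement chain C1qc (-0.72 ± 0.10, adjusted p = 6.76e-05) were lower. With isotype, where 11.3% of all genes were higher and 12.9% lower, the same lists had 1 receptor gene higher and 10 lower, 2 adaptors higher and 6 lower of 16, 8 actin branching genes higher and 2 lower of 22, and 4 exchange factors higher and 1 lower of 14. Medians of log2 fold change without a tumor were -0.47 for receptors, -0.40 for adaptors, 0.17 for actin branching genes and 0.13 for exchange factors, against 0.02 over all genes.

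With the tumor, 3 of 5 NADPH oxidase genes rose in each population and none fell, with Ncf1 at 0.75 ± 0.07 (adjusted p = 8.32e-07) in Tim-4high and 0.69 ± 0.07 (adjusted p = 2.13e-06) in Tim-4low cells, and Ncf4, Cyba being the others. Their medians were 0.64 and 0.61. Actin branching genes rose in 10 and fell in 2 of 22 in Tim-4high cells, and rose in 9 and fell in 2 in Tim-4low cells, led by Arpc3 (0.77 ± 0.07, adjusted p = 2.91e-07) and Cyfip1 (0.63 ± 0.06, adjusted p = 7.16e-07) in the former. Of 14 exchange factors 2 were higher and 5 lower in Tim-4high cells and 2 higher and 7 lower in Tim-4low cells, Tiam1 falling in both (-1.66 ± 0.15, adjusted p = 6.02e-07, and -1.16 ± 0.15, adjusted p = 1.74e-05). These counts stand beside backgrounds of 51.5% and 49.8%.

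With anti-Tim-4 in Tim-4high cells, beside 7.97% of all genes, 1 to 5 genes of each list passed. Among receptors and bridging proteins Stab1 (1.48 ± 0.37, adjusted p = 0.0277) and the scavenger receptor Cd36 (1.26 ± 0.32, adjusted p = 0.029) were higher and Thbs1 (-1.08 ± 0.26, adjusted p = 0.0242), Pros1 and Itgb1 lower. The exchange factor Vav2 was higher (0.39 ± 0.09, adjusted p = 0.0243), and the WAVE subunit Nckap1 (-1.15 ± 0.30, adjusted p = 0.0338), the inhibitor Srgap3 and the kinases Ptk2 and Ptk2b were lower. Nckap1 was at a low level, 4.01 ± 0.80 CPM in anti-Tim-4 Tim-4high libraries, against 553 ± 16.7 for the related gene Nckap1l. Of the other DOCK genes 2 were lower, Dock6 (-0.58 ± 0.15, adjusted p = 0.029) and Dock5 (-0.52 ± 0.14, adjusted p = 0.0353), as were the oxidase subunit Cybb (-0.45 ± 0.11, adjusted p = 0.0312) and Abi3 (-0.53 ± 0.11, adjusted p = 0.0155), and the CRK relative Crkl was higher (0.31 ± 0.09, adjusted p = 0.0414). In Tim-4low cells 1 gene of the receptor list was higher, Cd300lb (0.46 ± 0.09, adjusted p = 0.0395), and no gene of the 6 other lists described here passed. In the interaction of antibody with population, where 2.93% of all genes passed, 6 genes of these lists were positive and 1 was negative. The positive ones were Dock5 (0.998 ± 0.20, adjusted p = 0.0242), Abi3 (0.80 ± 0.16, adjusted p = 0.0242), Pros1, Cybb, Srgap3 and Itgb1, and the negative one was the scavenger receptor Stab1 (-2.23 ± 0.52, adjusted p = 0.0373).

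**Figure D5:**
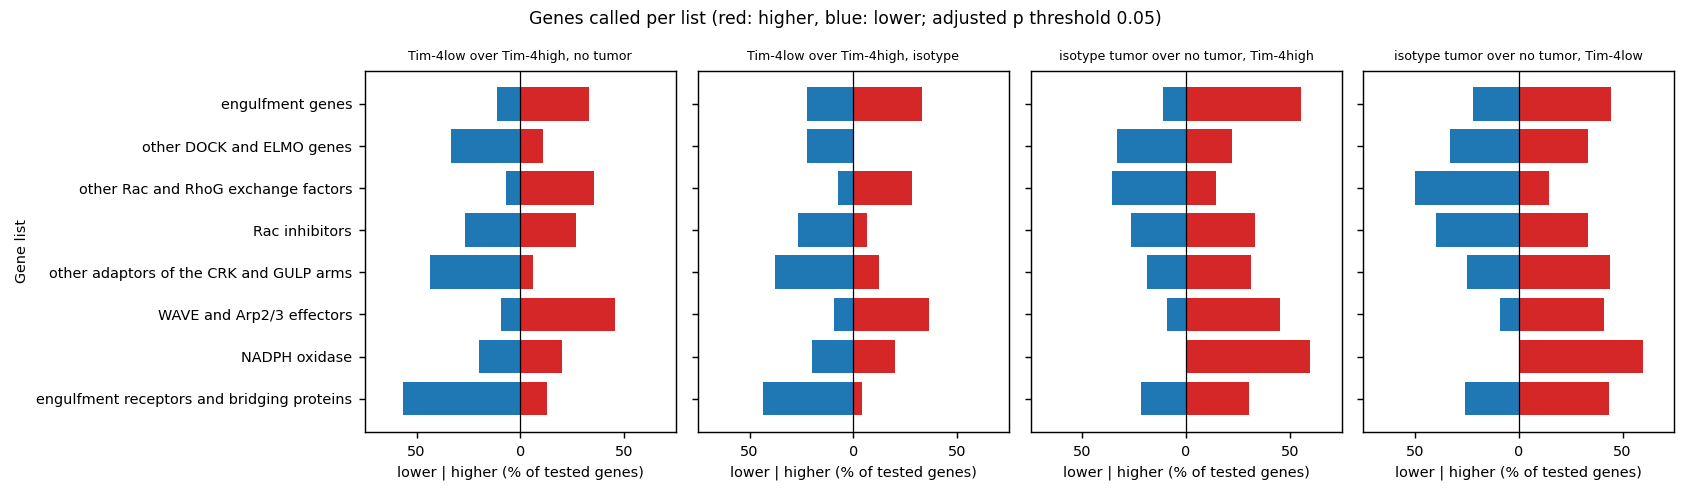
Percent of tested genes (x axis) of each list (y axis) called higher (red, right) or lower (blue, left) in 4 comparisons, at an adjusted p under 0.05. Receptors and adaptors extend further left than right between populations without a tumor (13 of 23 and 7 of 16 lower), and the oxidase genes extend to the right alone with the tumor (3 of 5 in each population).

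The genes with the most similar pattern over the 18 libraries were found by the smallest root mean square difference of log2(CPM + 1), each gene centred on its mean, among genes with at least 10 CPM on average. For Elmo1 this was Ganab (0.066), at 281 ± 7.23 CPM in isotype Tim-4high and 189 ± 4.58 in no-tumor Tim-4low libraries, followed by AU040320 and Ap4b1. Rac2 was followed most closely by Tprn (0.088), Chst12 and Rps26, and its nearest gene of the set was Elmo1 (0.163). Elmo2 had Rab43, Plcg2 and Pld4, Rac1 had Anp32b, Ybx1 and Skap2, and Rhog had Csnk2b, Psmb3 and Pdcd6 as nearest genes. Lrp1 had Dagla, Atp8a1 and Pld2 at distances from 0.128, Dock1 had Fam160b1, Ago1 and Kbtbd2, Dock2 had Atp2b1, Tex261 and Stk35, and Crk had Ppp2r2a, Stau1 and Smarcad1. Likeness is over 18 libraries of 6 groups and describes levels alone.

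Of the comparisons, 2 were also deposited by the authors. In the authors' deposited table that sets Tim-4high against Tim-4low cells of tumor-free mice, 2 of the 9 genes had an FDR under 0.05, Elmo2 at -1.77 (FDR 7.22e-10) and Lrp1 at 1.60 (FDR 1.41e-05), where a minus marks a fold decrease, and 17.5% of genes with an FDR did. In the authors' deposited table that sets anti-Tim-4 against isotype within Tim-4high cells 5 of the 9 did, Elmo1 at -1.32, Rac2 at -1.40, Crk at 1.25, Elmo2 at 1.15 and Dock2 at 1.14, against 20.3% of genes with an FDR. Elmo2 and Dock2 of the latter did not pass in the shared fit to all 18 libraries, where their adjusted p were 0.181 and 0.171. Conversely, Rac1 and Rhog were called without a tumor in the shared fit, while the authors' FDRs for them were 0.0722 and 0.08.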

How the data were processed

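Bulk RNA-seq libraries of sorted peritoneal macrophages (18 libraries, 6 groups of 3 by the labels) were used. The deposited gene and transcript tables hold estimated counts that the authors left without normalization. STAR, DESeq2 and mm10 appear in the submitters' processing notes with no version or role. The quantifier is not given in the sources used here, nor are annotation release and strand setting. For 2 comparisons the authors' deposited tables hold p-values with FDR and a fold change as a signed score, negative for a decrease. Gene ends in the files lie 1 base past those of GENCODE M21.

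Counts were rounded. filterByExpr kept 16609 of 23511 genes. edgeR 4.0.16 (R 4.3.3; limma 3.58.1) was fitted to all 6 groups together (TMM library factors, quasi-likelihood test, 12 residual degrees of freedom), with Benjamini-Hochberg adjustment over all genes tested. Depth was 24530070 to 34110392 counts. Whether the spread between libraries exceeded counting error was not tested gene by gene. For Elmo1 in no-tumor Tim-4low libraries the SD was only 1.51% of the mean. Every gene of the set is named, and in each other list the up to 3 called genes of smallest p; further pathway genes named were chosen after their values were seen. The members and the lists were chosen with earlier results of these data known. Libraries of 1 number within a condition deviated together (correlations of 0.309 to 0.796 in 9 pairs, 8884 genes), so numbers pair libraries there, and across conditions they did not (-0.626 to 0.458). Chi-square per degree of freedom between replicates was 9.66 to 75.2, so none was a copy of another. Alternatives were RLE factors, no filter, robust fitting, DESeq2 1.42.0, fits of the compared groups, library number as a block, and leaving out each library; 2 more, leaving out the pairs of libraries that stood apart, were added after seeing the data. The edgeR test was also run on simulated counts with known changes, and the outcome is not given here. Promoters of 8 of the 10 symbols matched the RefSeq table (GRCm38.p6). A list of related genes is not reported here.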

Additional observations from a re-analysis of the deposited data

Results flagged for a closer look

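The tumor response differed between populations for Rac2, whose interaction of tumor with population was -0.71 (log2). This test of the difference itself passed at an adjusted p of 0.0262 in edgeR's quasi-likelihood test. The Rac2 call depended on the setting: it was made in 10 of 20 alternatives, among them 4 of the 12 that left out a single library. Rac2 was at 274 ± 35.2 CPM in Tim-4high cells without a tumor and at 468 ± 64.6 with tumor and isotype, against 330.3 ± 42.8 and 345 ± 27.4 in Tim-4low cells.

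The response to anti-Tim-4 differed between populations for Elmo1, whose interaction of antibody with population was 0.40 (log2, adjusted p = 0.024 in the same test). This call was made in 12 of 19 alternatives, and the fit without both isotype libraries numbered 3 was among those that lost it. Elmo1 was at 69.0 ± 2.66 CPM with anti-Tim-4 and 91.1 ± 4.52 with isotype in Tim-4high cells, against 70.9 ± 1.99 and 71.1 ± 1.22 in Tim-4low cells. Both results use the isotype Tim-4high libraries.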

How the results depend on the processing

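Of 81 results (9 genes in 9 comparisons) 26 were called, 15 of them in every alternative and 16 whichever library was left out. In 20 results that were called in no setting the sign changed in some alternative (53 of 1179 values), with log2 fold changes of at most 0.07 in size, and no called result changed sign. RLE factors moved the median of all genes by at most 0.01. Counts of the 9 genes called were 4 without a tumor (2 in a fit of the compared groups, 2 to 5 leaving out 1 library), 5 with isotype (3 with no filter, 1 to 3 leaving out 1 library, 2 without both isotype libraries numbered 3), 3 for anti-Tim-4 against isotype within Tim-4high cells (1 to 3 leaving out 1 library, 1 without both isotype libraries numbered 3), 1 for the tumor interaction (2 with RLE factors, 2 with robust fitting, 4 with the replicate block, 0 in a fit of the compared groups, 0 to 2 leaving out 1 library, 2 without both no-tumor libraries numbered 1, 0 without both isotype libraries numbered 3, 3 with DESeq2) and 1 for the antibody interaction (2 with the replicate block, 2 in a fit of the compared groups, 0 to 2 leaving out 1 library, 0 without both isotype libraries numbered 3, 2 with DESeq2). In these the cause was not tested. The library number as a block across conditions, where numbers do not pair libraries, left 3, 0, 6 and 6 calls for the 2 antibody and the 2 tumor comparisons, as without it. Under sign flips of same-number pairs the block left the Elmo1 to Elmo2 ratio (-0.53) and the Dock2 to Dock1 ratio (0.14) at adjusted p of 0.0703 each. Leaving out 1 library gave Dock2 to Dock1 differences of 0.11 to 0.17 and Rac2 to Rac1 differences of -0.24 to -0.15. With transcripts under 10% of a gene left out of the denominator, Rac1-202 held 86.8% of Rac1 counts, and Elmo2-205 held 18.3% in no-tumor and 14.8% in isotype Tim-4low libraries.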
